A study of Homo sapiens with 6 samples.

Results

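Clustered histone genes encode the linker histone H1 and the core histones H2A, H2B, H3 and H4. They were followed on 41 probe sets, of 22215 tested on the array, whose platform annotation named 1 such gene, by an H1 symbol of the clusters or an H2AC, H2BC, H3C or H4C symbol (older HIST1, HIST2 or HIST3 names). These probe sets stood for 40 genes, out of 68 protein-coding histone genes that the RefSeq table of GRCh38.p14 lists under such names, with 6 probe sets for H1, 8 for H2A, 12 for H2B, 7 for H3 and 8 for H4. A further 20 probe sets named 2 or more histone genes and were kept apart. H1-10, which matches the symbol pattern but is a single gene outside the clusters, and H2BC12L, a gene resembling H2BC12 on another chromosome, were not counted.

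The arrays compared 3 samples of parental NCI-H1975 cells, which are sensitive to the EGFR kinase inhibitor WZ4002, with 3 samples of WZR6, clone 6 of the same line, picked from cells that had been exposed to increasing doses of WZ4002 and resistant to it. NCI-H1975 is an established line of lung adenocarcinoma (a non-small cell cancer) whose EGFR is mutant. Both groups grew exponentially in RPMI medium with 5% FBS, and the sources used here do not say whether the harvested WZR6 cultures held WZ4002. WZR6 is 1 clone, so a difference between the groups is a difference of that clone from the parental line. Nothing in the labels says that the 3 samples of a group came from separate cultures, and p-values measure only the spread between these samples, which may be technical.

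Histones package DNA into nucleosomes: pairs of H2A, H2B, H3 and H4 form the core around which DNA is wound, and H1 binds the linker between cores. Dividing cells make most of them during S phase from genes that sit in clusters, and the main mRNAs of these genes end in a conserved stem-loop in place of a poly(A) tail; some of the genes also give polyadenylated transcripts. Per the labels, the cDNA was primed with oligo-dT, which copies tailed RNA. How much of each signal came from tailed transcripts was not tested. Bulk RNA also cannot tell apart fewer cells in S phase and less histone RNA per cell.

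Promoters of 7 members described below are shown first, to place them beside the sequence elements that their families share; they were chosen after the values were seen, from several families and both directions, and are not the 7 with the largest differences. Each line gives the 130 bases before the RefSeq start, 5′ to 3′, on GRCh38.p14. Capitals mark the TATA box TATAAA, the core of the CCAAT box, the octamer ATTTGCAT (bound by OCT1), the H1 box AAACACA and GGTCCG (found before most H4 genes), on either strand. H1-2, H2AC6, H2BC5, H2BC12 and H2BC21 were lower in WZR6, and H2BC13 and H4C11 were higher.
H1-2 (chr6:26056471-26056600, minus strand): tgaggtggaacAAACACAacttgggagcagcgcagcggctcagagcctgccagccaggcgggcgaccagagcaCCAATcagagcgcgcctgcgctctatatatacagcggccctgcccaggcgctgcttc
H2AC6 (chr6:26124042-26124171, plus strand): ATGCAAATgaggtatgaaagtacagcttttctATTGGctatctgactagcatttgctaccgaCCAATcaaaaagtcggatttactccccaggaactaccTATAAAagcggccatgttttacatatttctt
H2BC5 (chr6:26157991-26158120, plus strand): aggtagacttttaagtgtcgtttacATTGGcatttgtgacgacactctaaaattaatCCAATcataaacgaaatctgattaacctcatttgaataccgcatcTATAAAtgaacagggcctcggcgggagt
H2BC12 (chr6:27146859-27146988, minus strand): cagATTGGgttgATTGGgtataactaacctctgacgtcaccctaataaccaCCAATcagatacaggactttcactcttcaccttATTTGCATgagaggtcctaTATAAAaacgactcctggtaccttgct
H2BC21 (chr1:149886683-149886812, minus strand): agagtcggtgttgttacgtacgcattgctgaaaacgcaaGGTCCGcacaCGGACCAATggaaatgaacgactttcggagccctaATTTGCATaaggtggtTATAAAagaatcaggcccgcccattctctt
H2BC13 (chr6:27807930-27808059, minus strand): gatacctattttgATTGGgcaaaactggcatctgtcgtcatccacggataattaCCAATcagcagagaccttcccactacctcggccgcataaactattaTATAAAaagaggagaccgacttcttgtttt
H4C11 (chr6:27823962-27824091, plus strand): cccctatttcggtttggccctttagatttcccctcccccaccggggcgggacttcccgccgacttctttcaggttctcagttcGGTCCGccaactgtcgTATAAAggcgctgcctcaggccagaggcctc

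In the full windows of 300 bases (250 before the start and 50 after it), 63 clustered histone genes had an entry in the RefSeq promoter table, 38 of the 40 measured genes among them. The octamer ATTTGCAT was present in 14 of 18 H2B and 11 of 16 H2A promoters, against 1.80% of 27305 promoters of all genes. AAACACA was present in 6 of 6 H1 promoters (5.76% of all promoters) and GGTCCG in 11 of 12 H4 promoters (11.2%). CCAAT stood in 54 of the 63 (35.7% of all) and TATAAA in 41 (12% of all). In H2BC21 a GGTCCG match on the other strand overlaps the CCAAT match, and no other matches overlap in the printed windows. Among measured genes the octamer was in 8 of 13 lower in WZR6, 6 of 23 not called and 0 of 2 higher. By family it was in 3 of 4 lower and 3 of 4 uncalled H2A genes, and in 5 of 6 lower, 3 of 4 uncalled and 0 of 1 higher H2B genes. These counts are a description, and no difference between them was tested. H2BC5, with one of the largest decreases, has none, and H2BC13, which rose, has none either.

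Of the probe sets that name 1 histone gene, those with a mean above the median of all values were mostly lower in WZR6. Of the 41 probe sets, 14 fell, 2 rose and 25 were not called, at an adjusted p under 0.05 in limma over all 22215 probe sets. Over all probe sets 19.5% fell, 21.6% rose and 41.1% were called in either direction. Decreases of at least 2-fold numbered 7 of 41, in a table where 2.65% of probe sets fell that much, and no increase reached 2-fold. All 3 WZR6 arrays lay below all 3 parental arrays on 17 of the probe sets (23.6% of all probe sets). The median difference was -0.10 on the log2 scale, against 0.03 over all probe sets, since most of the 25 uncalled members sat near 0.

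**Figure D1:**
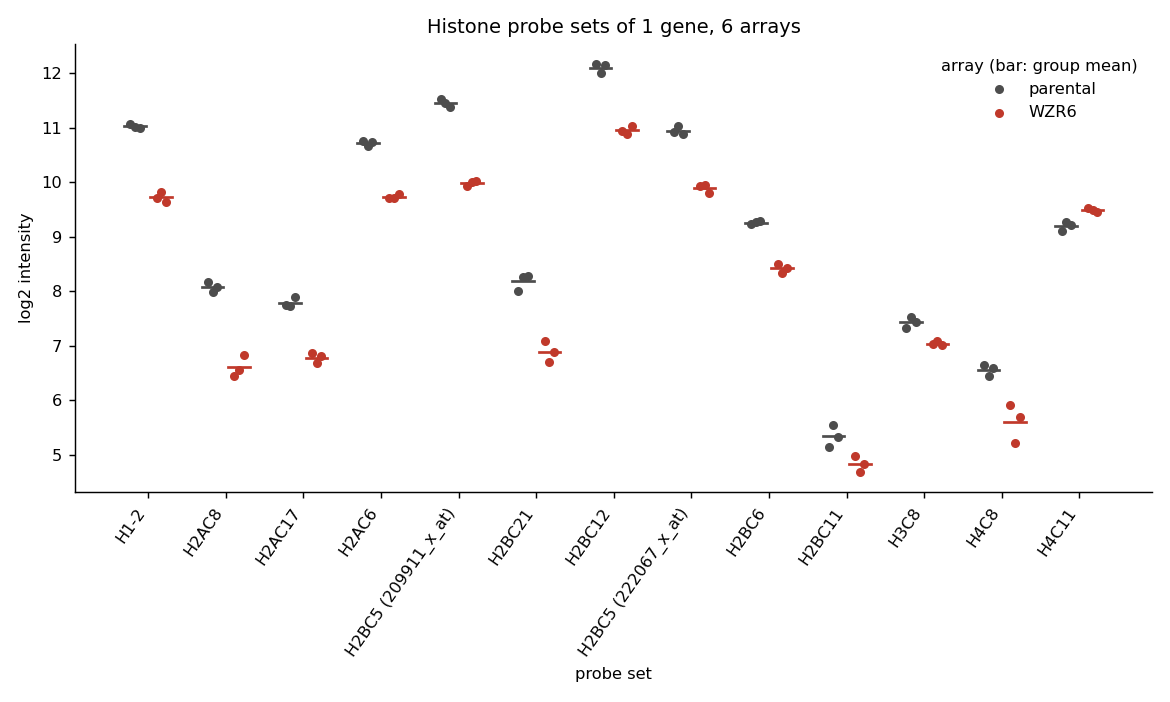
Log2 intensity on each array (y axis) for the 13 histone probe sets that the naming rule selects (x axis), with 3 parental and 3 WZR6 arrays as points and the group mean as a bar. On 12 of them every WZR6 array lies below every parental array, and H4C11 alone of the 13 lies above.

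Of the linker histones, H1-2 was the only one of 6 that was called (16.7% lower, against 19.5% of all probe sets). Its log2 intensity was 11.06, 11.01 and 11 on the parental arrays and 9.71, 9.82 and 9.63 on the WZR6 arrays. The groups were far apart, and H1-2 was 2.47-fold lower in WZR6 (95% interval 2.23 to 2.74, adjusted p = 9.96e-06 in limma). H1-2 is one of the somatic H1 variants that most cell types make. The other somatic variants H1-1, H1-3, H1-4 and H1-5 and the testis variant H1-6 differed by -0.08 to 0.16, and their groups overlapped. For H1-3, whose groups lay around 7.1, the 95% interval of the difference ran from -0.36 to 0.19, which does not reach the change of H1-2.

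Among H2A genes 4 of 8 probe sets fell (50%, against 19.5% of all probe sets) and none rose. H2A forms a dimer with H2B at the face of the nucleosome. H2AC8 gave 8.17, 7.99 and 8.08 in parental cells and 6.44, 6.56 and 6.82 in WZR6. It had the largest decrease of the 41 probe sets, by 1.47 on the log2 scale, or 2.77-fold (2.34 to 3.28). H2AC17 lay at 7.75, 7.72 and 7.89 in parental cells and at 6.86, 6.68 and 6.80 in WZR6, 2.01-fold lower. H2AC6 lay at 10.76, 10.66 and 10.73 in parental cells and at 9.71, 9.71 and 9.78 in WZR6, 1.98-fold lower (1.82 to 2.16). By limma the 3 adjusted p-values were 5.03e-05, 5.11e-05 and 1.44e-05, in that order, and in each of them the groups were well apart. With values floored at 7.38, the median of all values, the difference was -0.70 for H2AC8 and -0.41 for H2AC17, still called. H2AC25, of the small cluster on chromosome 1, fell by 0.36 ± 0.06 (SE); it is named after its values were seen. H2AC4, H2AC14, H2AC15 and H2AC16 differed by -0.10 to 0.08 and were not called.

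H2B, the partner of H2A, had the most decreases, with 7 of 12 probe sets lower, 1 higher and 4 not called. That is 58.3% lower, against 19.5% of all probe sets, and the families also differ in level and probe set type. H2BC5 was read by a pair of probe sets. The first gave 11.52, 11.45 and 11.37 in parental cells and 9.93, 10 and 10.02 in WZR6, or 2.75-fold lower (2.50 to 3.03, adjusted p = 4.81e-06 in limma). The second gave 10.91, 11.02 and 10.88 against 9.93, 9.94 and 9.80, or 2.07-fold lower. Both are of the _x_at type, which can hybridize with related transcripts, so how much of either is H2BC5 itself is uncertain. H2BC12 does not rest on such a probe set, and its values were 12.16, 12 and 12.14 in parental cells and 10.93, 10.89 and 11.02 in WZR6. It was 2.22-fold lower (2.00 to 2.48), with no overlap of the groups.

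H2BC21, of the larger cluster on chromosome 1, fell 2.44-fold (2.02 to 2.97, adjusted p = 0.000159 in limma), from 8.01, 8.25 and 8.27 to 7.09, 6.69 and 6.89; with the floor its difference was -0.80. H2BC6 fell 1.79-fold, from 9.23, 9.26 and 9.28 to 8.50, 8.33 and 8.43. Both pairs of groups stayed apart, and H2BC6 is again on an _x_at probe set. H2BC11 lay low, at 5.14, 5.55 and 5.33 in parental cells and 4.97, 4.68 and 4.83 in WZR6, a decrease of 0.51 ± 0.12 (SE). Its mean lay under 5.27, the lower quartile over the table, and with values floored at the median of all values, 7.38, its call was lost. Every H2BC11 value lies under that floor, so this loss was fixed in advance. H2BC9 fell by 0.24 ± 0.06 and H2BC13 rose. H2BC13 went from 5.13, 5.35 and 5.18 to 5.55, 5.47 and 5.61, a difference of 0.32 ± 0.07 (adjusted p = 0.0108 in limma). Its values also all lie under the floor, so its call was lost there by necessity. H2BC9 and H2BC13 are named after their values were seen. H2BC3 was not called at -0.29 ± 0.11 (adjusted p = 0.073 in limma), and without parental replicate 2 it was, at -0.42 (adjusted p = 0.00284). H2BC14, H2BC15 and H2BC17 differed by -0.11 to -0.03, with overlapping groups.

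H3 and H4 form the tetramer at the centre of the nucleosome. Of their probe sets, 1 of 7 for H3 fell, and 1 of 8 for H4 fell and 1 rose. The shares lower were 14.3% and 12.5%, near the 19.5% of all probe sets that fell. Median levels were 5.12 for H3 and 5.79 for H4, against 7.31 for H2A and 6.58 for H2B. Whether family or level goes with the counts was not tested. H3C8, on an _x_at probe set, gave 7.32, 7.53 and 7.44 in parental cells and 7.02, 7.08 and 7.01 in WZR6, or 1.32-fold lower (1.18 to 1.46). H4C8, on an _s_at probe set, gave 6.64, 6.44 and 6.58 against 5.91, 5.21 and 5.68, or 1.94-fold lower (1.47 to 2.56). Its WZR6 arrays had the widest scatter of the 13 plotted probe sets. The calls of H3C8 and H4C8 both ended with the floor at the median. Every H4C8 value lies under that floor, so the loss of its call was fixed in advance. The WZR6 values of H3C8 also all lie under the floor, which shrinks its decrease by construction. H4C11 moved the other way, from 9.10, 9.27 and 9.22 to 9.52, 9.48 and 9.46, a rise of 1.23-fold (1.11 to 1.35, adjusted p = 0.00641 in limma) with no overlap of the groups, on an _x_at probe set. The other 6 H3 probe sets differed by -0.32 to 0.18 and the other 6 H4 probe sets by -0.13 to 0.11. H3C2, at -0.32 ± 0.13 (SE), was not called (adjusted p = 0.102), although its WZR6 arrays all lay below the parental ones.

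**Figure D2:**
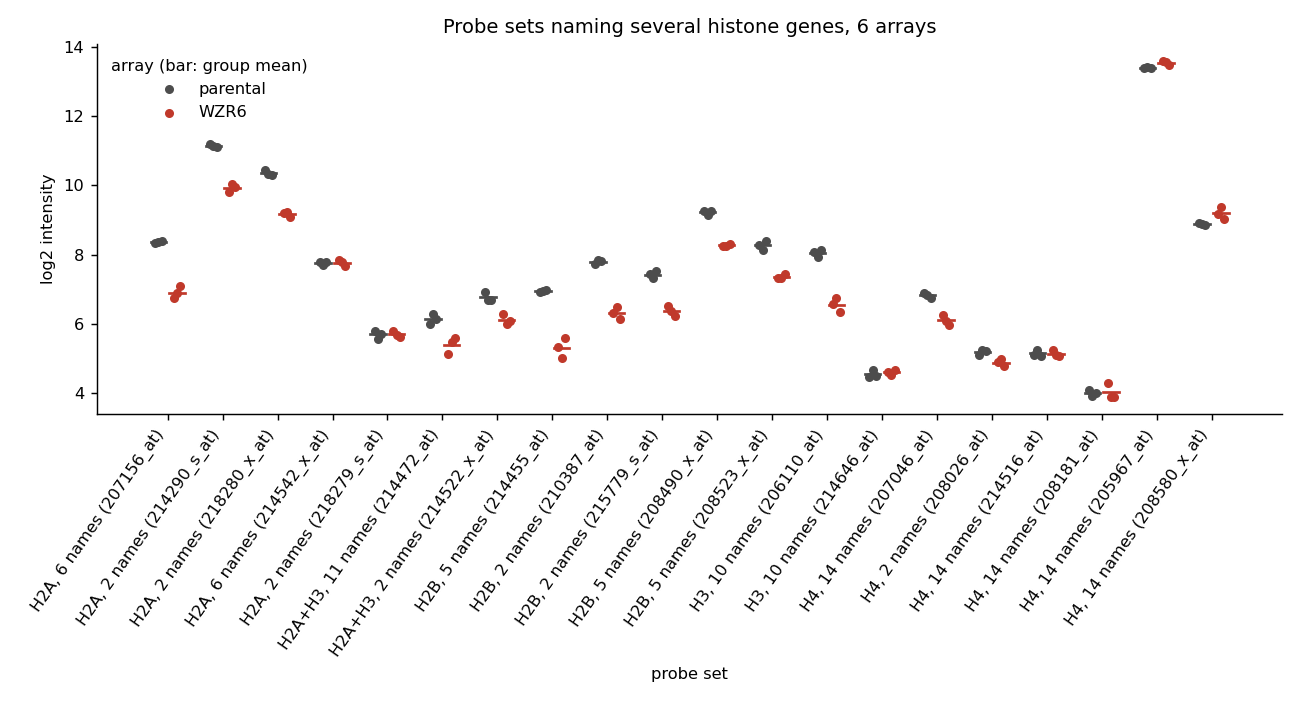
Log2 intensity on each array (y axis) for the 20 probe sets that name several histone genes (x axis: family, number of genes named and probe set), with 3 parental and 3 WZR6 arrays as points and the group mean as a bar. All 5 H2B probe sets lie lower in WZR6, while the H4 probe set near 13.5 lies slightly higher.

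Of the probe sets that name several genes 13 of 20 were lower, 1 higher and 6 not called, beside 19.5% lower over all probe sets, with a median difference of -0.74. They overlap in the genes they name and are not independent of each other. The 5 H2B probe sets all fell, by 0.91 to 1.65. The largest decrease, 3.13-fold (2.51 to 3.91), was that of a probe set that names H2BC4, H2BC6, H2BC7, H2BC8 and H2BC10, from 6.93, 6.95 and 6.97 to 5.33, 5.01 and 5.58. H2AC18 and H2AC19, near-identical genes of the larger chromosome 1 cluster, shared 3 probe sets. The brightest went from 11.19, 11.13 and 11.11 to 9.82, 10.03 and 9.94, and the next fell by 1.18, while the dimmest, at 5.57 to 5.79 on all arrays, differed by 0.01. The probe sets of these genes therefore disagree. So did a pair that names the same 6 H2A genes, H2AC11, H2AC12, H2AC13, H2AC15, H2AC16 and H2AC17. The first fell 2.75-fold (2.38 to 3.18), from 8.33, 8.36 and 8.39 to 6.73, 6.89 and 7.08, and the second, an _x_at probe set at 7.66 to 7.85 on all arrays, differed by 0.01.

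The shared H3 and H4 probe sets disagreed as well. For H3, one probe set that names 10 genes fell 2.80-fold (2.35 to 3.34), from 8.06, 7.92 and 8.14 to 6.58, 6.73 and 6.35. The other, which names the same 10 genes and lay at 4.47 to 4.66 on all arrays, differed by 0.05. Both probe sets that name H3 genes together with H2AC7 fell, by 0.65 and 0.75. Of 6 H4 probe sets 2 fell, 1 rose and 3 were not called; 5 of the 6 name the same 14 genes, including H4C16, which lies outside the clusters. The brightest of the 5 stood at 13.40, 13.42 and 13.38 in parental cells and 13.60, 13.57 and 13.48 in WZR6, a difference of 0.15 ± 0.05 (SE, adjusted p = 0.0575 in limma, and 0.00148 to 0.173 over its 16 alternatives, 7 of which called it, among them the fit without WZR6 replicate 3, at 0.19). Of the others that name the same genes, an _at probe set fell by 0.73 ± 0.08 and an _x_at probe set rose by 0.31 ± 0.08, so H4 signals moved both ways. With values floored at 7.38, probe sets that lie under it in both groups, such as that H4 probe set, the H2B probe set with the largest decrease and both with H2AC7, had no difference left, and the H3 probe set above had -0.66. The rise of the _x_at probe set was no longer called with the floor at the median or without parental replicate 2, parental replicate 3 or WZR6 replicate 1, where its difference was 0.30 to 0.32.

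**Figure D3:**
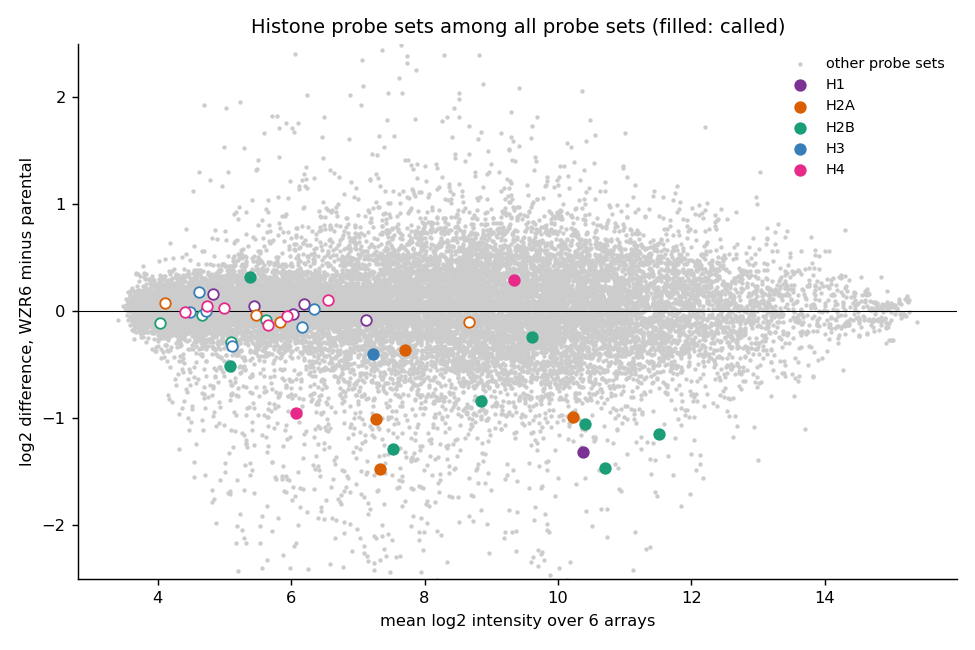
Mean log2 intensity over the 6 arrays (x axis) against the log2 difference WZR6 minus parental (y axis) for all probe sets, with the 41 histone probe sets coloured by family and filled where called; 114 probe sets beyond 2.5 on the y axis, none of them among the 41, are not drawn. Histone probe sets on the left sit near 0, and most of those on the right lie between -0.2 and -1.5.

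Among the 41 probe sets that name 1 gene, decreases were found mainly where the signal was strong. Of 11 histone probe sets whose mean over all arrays was above 7.38, the median of all values, 9 fell, 1 (H4C11) rose and 1 (H2AC14) was not called. The median difference of the 11 was -0.99, and 29.4% of all probe sets above that level fell. Among the 11 only H1-2, H2AC25 and H2BC12 are on plain _at probe sets, and H2BC5 enters by both of its probe sets. Whether level or probe set type goes with the decreases was not tested. H2BC21, among those that fell, passed the level only through its parental arrays, with a mean of 8.18 there and 6.89 in WZR6. Of 17 between the lower quartile and the median 4 fell and 1 rose (14.8% of all such probe sets fell). H2AC8, with the largest decrease of the 41, is among these 4, just under the median at a mean of 7.34. Of 13 below the lower quartile 1 fell (4.16% of all). The probe sets that name several genes did not follow the same order. Of these, 7 of 8 between the lower quartile and the median fell, and 5 of 8 above the median. Below the lower quartile 1 of 4 fell. The table has no detection calls, so a weak probe set with a difference near 0 does not show that its gene was steady. Probe set type moved with the counts too. Of the plain _at type 6 of 30 fell (20%), near the 17.7% of all _at probe sets that fell. Of the _s_at type 3 of 4 fell, those of H2AC6, H2BC21 and H4C8 (22.6% of all such probe sets fell). Of the _x_at type 5 of 7 fell, those of H2BC5, H2BC6, H2BC9 and H3C8 (18.0% of all). Both types can be shared between transcripts, so how much of these signals is the named gene is uncertain. With the last 2 types left out, the fit called 6 lower and 1 higher.

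The histone genes sit in 3 clusters, and those of chromosome 6 are interleaved with other genes, so their neighbours were read beside them, at 1 probe set per gene. At that level 13 of 40 histone genes fell and 2 rose, where 23.5% of all 11963 genes fell and 24.5% rose (48.0% in either direction). Inside the chromosome 6 cluster 20 other genes were measured, and they moved upward: 13 rose, none was called lower, and the median difference was 0.38. The 38 histone genes of the same stretch had a median of -0.08, with 11 lower and 2 higher. Of 7 butyrophilin genes, which encode immunoglobulin-family membrane proteins or are pseudogenes of them, 5 rose, and BTN1A1 (-0.03) and BTN2A3P (0.19) were not called. BTN3A2 went from 10.56 ± 0.09 (SD) to 11.75 ± 0.04, or 2.27-fold higher. BTN2A2 rose by 0.93 ± 0.06 (SE), BTN2A1 by 0.88 ± 0.06, BTN3A3 by 0.81 ± 0.08 and BTN3A1 by 0.67 ± 0.07; the BTN3A genes resemble each other and may share signal. HMGN4, a nucleosome-binding protein gene, rose by 0.59 ± 0.04, and the zinc finger pseudogene ZNF204P by 1.78 ± 0.15. HFE, the iron regulator that lies between H1-2 and H1-6 in the order of measured genes, differed by -0.08 ± 0.06 and was not called. These neighbour genes were named after their values were seen.

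**Figure D4:**
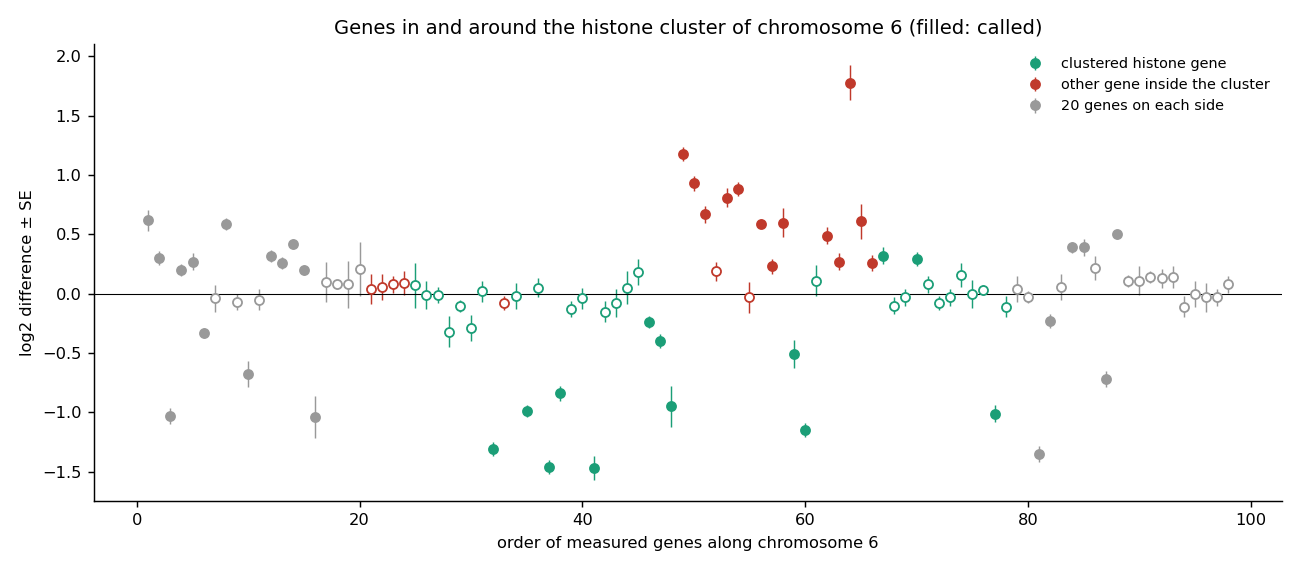
Log2 difference WZR6 minus parental with its SE (y axis) for measured genes in their order along chromosome 6 (x axis), with histone genes in green, other genes inside the cluster in red and 20 genes on each side in grey; filled points were called. The called histone genes lie below 0 with 2 exceptions, while the called red points between them lie above 0.

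Counts by stretch of that cluster are given as a description, with no test between stretches, beside 19.5% lower and 21.6% higher over all probe sets. The first stretch, from H1-1 to H4C8 among measured members, held 24 probe sets, of which 9 fell and none rose (median -0.14). The middle stretch held H2BC11, H2BC12 and H4C9, of which the first 2 fell. The last stretch, from H2BC13 to H2BC17, held 12 probe sets, of which H2AC17 fell, H2BC13 and H4C11 rose and 9 were not called (median -0.02). The median level was 6.12 in the first stretch and 5.19 in the last, and whether position or level goes with the difference was not tested. The 20 measured genes before the cluster had 9 higher and 4 lower (median 0.15), and the 20 after it 3 higher and 3 lower (median 0.07), beside 24.5% higher and 23.5% lower over all genes. Around the larger cluster of chromosome 1, where H2BC21 was the only histone gene with a probe set of its own, 13 of 41 neighbours rose and 4 fell (median 0.05); without parental replicate 1, 8 rose. Around the smaller cluster of chromosome 1, whose H2AC25 fell, the neighbours leaned the other way, with 15 of 40 lower and 7 higher (37.5% and 17.5%, median -0.09). These 40 include the histone genes H3-3A (-0.09) and H3-4 (-0.13), neither of them called.

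Some histones outside the clusters were lower as well. Of 9 measured standalone and replacement histone genes 4 fell and 0 rose (44.4% lower, against 32.5% of the clustered histone genes and 23.5% of all genes), with a median of -0.09 against 0.02 over all genes. H2AX, the variant phosphorylated at DNA breaks, went from 11.67, 11.81 and 11.74 to 10.83, 10.76 and 10.74, a decrease of 0.96 ± 0.05 (SE); as the mean of its own probe sets it differed by -0.49. H1-10 fell by 0.56 ± 0.04, H2AZ2, which encodes an H2A.Z protein, by 0.52 ± 0.04 and the centromeric CENPA by 0.21 ± 0.05. H2AZ1, H3-3A, H2AJ, MACROH2A1 and MACROH2A2 differed by -0.09 to 0.07 and were not called. H2BC12L fell 2.25-fold (2.05 to 2.47), close to H2BC12 in size; the sequences are alike, and its probe set is of the _x_at type.

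Genes that make and process histone mRNA did not share a direction: 10 of 20 rose, 5 fell and 5 were not called (median 0.15). Over all genes 24.5% rose and 23.5% fell, so the 5 lower (25%) are at the share of all genes. SLBP, which binds the stem-loop and is needed to process and translate histone mRNA, fell from 11.84, 11.85 and 11.81 to 11.48, 11.44 and 11.51, by 0.36 ± 0.04 (SE, adjusted p = 0.000429 in limma). HINFP, a transcription factor of H4 genes, fell by 0.46 ± 0.05 and the zinc finger factor YY1 by 0.43 ± 0.07 (-0.27 as the mean of its own probe sets). NPAT, the cyclin E-CDK2 substrate that activates histone transcription, rose from 9.48, 9.53 and 9.57 to 10, 9.99 and 10.08, by 0.50 ± 0.05. CASP8AP2, or FLASH, which works with NPAT, rose by 0.27 ± 0.05, and NCBP2, a cap-binding subunit, by 0.39 ± 0.07.

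Chaperones that carry and deposit histones rose for 12 of 28 genes (42.9%, against 24.5% of all genes), and 0 were called lower in the reported limma fit (median 0.15). In 7 of 17 alternatives 1 to 3 were lower, among them 2 without parental replicate 2. DAXX, an H3.3 chaperone, rose by 0.97 ± 0.05 (SE), ASF1A, an H3-H4 chaperone, by 0.51 ± 0.06 (0.32 without _x_at and _s_at probe sets), NAP1L1, an H2A-H2B chaperone, by 0.41 ± 0.04 and SSRP1, a FACT subunit, by 0.46 ± 0.15. SSRP1 was no longer called with the floor, with the intensity trend, or without parental replicate 1, parental replicate 3, WZR6 replicate 1 or WZR6 replicate 2, where its difference was 0.38 to 0.41. Genes of S phase and DNA replication were lower for 21 of 39, higher for 11 and not called for 7 (median -0.21), beside 23.5% lower and 24.5% higher over all genes. RPA3, a subunit of the single-strand binding complex, fell by 0.78 ± 0.04, GINS2 and MCM2, of the replicative helicase, by 0.78 ± 0.04 and 0.77 ± 0.05, and RPA2 rose by 0.83 ± 0.05. Mitosis genes rose for 11 of 20 and fell for 2 (55% and 10%, median 0.15); without parental replicate 2, parental replicate 3, WZR6 replicate 1 or WZR6 replicate 2, 1 was lower. Of the 4 with the largest differences, CDC20 rose by 1.01 ± 0.05, KIF20A by 0.67 ± 0.05 and TPX2 by 0.51 ± 0.05, while MKI67 fell by 0.48 ± 0.06. As the mean of its own probe sets MKI67 differed by -0.13, and it was still called. A list of 16 genes of cell cycle exit and G1 control holds CDK inhibitors, RB1 and its relatives, and also cyclins, among them the D-type cyclins CCND1, CCND2 and CCND3, which drive cycle entry. Of the 16, 6 rose, among them CCND3 by 0.38, CDKN2D by 1.05 ± 0.12, GADD45A by 1.02 ± 0.05 and RB1 by 0.88 ± 0.12 (0.49 as the mean of its own probe sets), and 4 fell, among them CCND1, which fell by 0.74, and the CDK inhibitor CDKN1A, which fell by 0.82 ± 0.06. CDKN2D differed by -0.09 on its other probe set, the one read when both shared types were dropped. The lists of histone mRNA production, chaperones, S phase and mitosis are bright, with median levels of 9.94, 10.65, 10.33 and 11.1. Over all genes the median level was 8.13. Calls were more frequent at high levels: of all probe sets above 7.38, 33.9% rose and 29.4% fell. These lists stand beside the histone decreases as measured values, and their part in them was not tested.

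**Figure D5:**
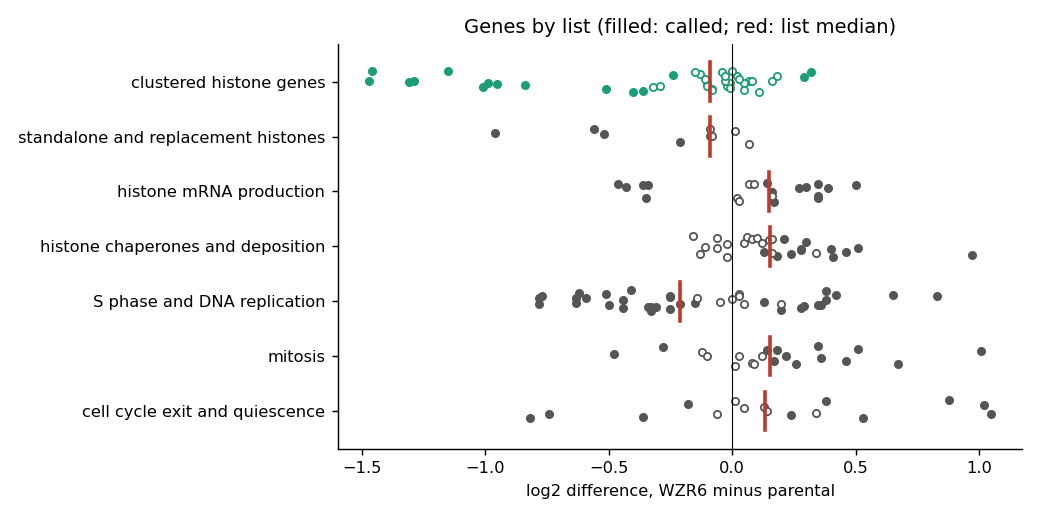
Log2 difference WZR6 minus parental (x axis) for each measured gene of the clustered histones and of 6 gene lists (y axis), filled where called, with the list median in red. The S phase list has its median at -0.21, while the chaperone and mitosis lists have theirs at 0.15.

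Across arrays, log2 intensities correlated with r of 0.9978 to 0.9983 within a group and 0.9815 to 0.9826 between groups, 0 pairs of arrays were identical, and array medians lay between 163 and 170. The marker counts below stand beside 23.5% of all genes lower and 24.5% higher. Of 7 epithelial lung markers 6 fell, and their summed intensity was 42198 to 42489 on the parental arrays and 23315 to 24072 on the WZR6 arrays. The 4 with the largest decreases were EPCAM by 6.26 ± 0.13 (SE, log2), CDH1 by 5.69 ± 0.07, MUC1 by 2.38 ± 0.07 and NKX2-1 by 2.14 ± 0.07. Leukocyte markers fell for 2 of 5, ITGB2 by 1.37 ± 0.09 and CD14 by 0.96 ± 0.07, with PTPRC at 4.20 and 4.17 in the groups, and their sum was 517 to 577 against 295 to 324. Fibroblast markers fell for COL1A1 (3.00 ± 0.07) and COL1A2 (0.56 ± 0.05) and rose for PDGFRB (0.66 ± 0.10) of 7, summing to 2188 to 2378 against 1261 to 1276, and of 5 endothelial markers CDH5 rose by 0.89 ± 0.10, with sums of 266 to 295 against 288 to 311. With the floor ITGB2, CDH5 and PDGFRB had no difference left and lost their calls. All values of these genes lie under the floor, so this loss was fixed in advance. As the mean of a gene's own probe sets the differences were smaller, at -3.36 for CDH1, -1.17 for NKX2-1, -1.04 for COL1A1 and -0.34 for COL1A2, all still called. The part of these markers in the histone values was not tested.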

How the data were processed

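RNA of 3 parental and 3 WZR6 samples was read on 1 array each. The deposited intensity per probe set is on a linear scale (9.87 to 44567) and comes from RMA, which the submitters' processing notes name without version or settings. RMA corrects background, makes the arrays' probe distributions equal and gives 1 value per probe set.

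Log2 was taken of the deposited values, without a pseudocount. After removal of 62 control probe sets, 22215 were fitted with limma 3.58.1 under R 4.3.3 (two-sided moderated test from lmFit and eBayes, Benjamini-Hochberg over all probe sets, called at an adjusted p under 0.05), and 11963 genes likewise, each by its brightest own probe set. Errors of differences are SE of the fit and intervals have 95% confidence; n = 3 per group throughout, which limits the precision. The platform annotation named 1 gene for 19064 probe sets, several for 1043 and none for 2108; 0 symbols changed through the RefSeq table of GRCh38.p14, which gave gene order. Clustered histone genes under 3 Mb apart formed a cluster, and gaps over 0.5 Mb split it into stretches.

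Values on every array are given for called histone probe sets with a difference of at least 0.5 log2 (up to 12 each way), the brightest of each family, and SLBP, NPAT and CASP8AP2; from each list up to 4 called genes are named. Members, lists and rules were chosen with earlier results of these data known, and the promoter motifs and printed promoters after the values were seen. The model was tested on simulated data. Alternatives were other normalizations, filters, a floor, a pseudocount of 16, an intensity trend, a replicate block, probe set types, other member rules and leaving out each array. Figures used matplotlib 3.10.9 in Python 3.11.15.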

Additional observations from a re-analysis of the deposited data

How the results depend on the processing

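Calls, though not sizes, of H1-2, H2AC6, H2AC8, H2AC17, H2AC25, H2BC5, H2BC6, H2BC9, H2BC12, H2BC21 and H4C11 held in the same direction in each alternative that kept its probe set. Of 41 probe sets the reported fit called 16, 14 lower, 2 higher and 7 lower at 2-fold. Probe sets above the median alone gave 10 called, 9 lower and 1 higher, with a median difference of -0.99 (8 lower, 1 higher and 9 called of the genes), since weak probe sets are then left out. The floor gave 1 higher, also among genes, and 4 lower at 2-fold. Without _x_at and _s_at probe sets 7 were called, 6 lower, 1 higher and 4 lower at 2-fold, with the same 7, 6 and 1 among genes, of 15 genes called otherwise. Counting probe sets with several names gave 30 called and 27 lower. Of those 20 probe sets the reported fit called 14; 7 were called above the median (5 lower, 2 higher), 8 with the floor (7 lower) and 7 without _x_at and _s_at (7 lower, 0 higher), and median centring, the lower quartile filter, the pseudocount and the intensity trend gave 2 higher.

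Of the genes in lists 98 were called, and 55 without _x_at and _s_at, where CDKN2D differed by -0.09 on another probe set (adjusted p = 0.676). Of the 60 neighbours on chromosome 6 the 7 lower became 3 above the median and 4 with the floor. Around the larger cluster of chromosome 1 the 13 higher and 4 lower became 7 and 2 without _x_at and _s_at. Neighbours of the smaller cluster of chromosome 1 were not counted in these alternatives, nor in the neighbour counts that follow.

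Leaving out each array gave 16 to 17 called histone probe sets, 14 to 15 lower, 2 higher and 6 to 9 lower at 2-fold. Their median was -0.12 to -0.06. Of the probe sets with several names 13 to 15 were called (13 lower, 0 to 2 higher). Called histone genes numbered 15 to 16 (13 to 14 lower) and called list genes 84 to 90. Called neighbours numbered 43 to 47, with 8 to 11 higher around the larger cluster of chromosome 1. With the replicate block 17 histone probe sets were called, 15 lower and 2 higher (14 with several names, 17 histone genes, 96 list genes and 48 neighbours), H3C2 among them (adjusted p = 0.0466 in limma). The deviations of same-numbered samples correlated at -0.01, 0.12 and 0.23 and 3 of 6 samples were most like their own number, so the number was not taken as a pairing. The lack of detection calls limits what the 13 probe sets below the lower quartile can show.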
